A study of Mus musculus with 6 samples.

Results

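The genes described here encode the soluble acid hydrolases of the lysosome, the activator and transfer proteins that present lipids to them, and proteins of the lysosomal membrane. The set was chosen by symbol, without the cathepsins and the proton pump. It holds 34 of the 54446 entries of the deposited table, and all 34 symbols were found there once. The lysosome is the acidic compartment in which macrophages take apart what they engulf. Its hydrolases each remove 1 kind of bond, so that sugar chains, sulfated glycosaminoglycans and sphingolipids are shortened step by step, and loss of a single enzyme leaves its substrate stored in the cell. Many lysosomal genes carry the E-box CACGTG near their start, to which the transcription factor TFEB and its relatives TFE3 and MITF bind.

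The samples were bone marrow-derived macrophages, cells grown in culture from the marrow of C57BL/6 mice 6 weeks of age. They had been given PBS, or KN93 at 5 µM or 10 µM, with 2 samples in each of the 3 groups. KN93 is a small molecule inhibitor of CaMKII and CaMKIV, kinases that calcium-bound calmodulin switches on. The labels name PBS as the control and give no solvent for KN93, no time of exposure, and no statement that replicates are separate animals or cultures. The p-values below therefore rest on sample-to-sample spread that may be technical only. Levels are FPKM, fragment counts scaled by gene length and library total, so that genes can be compared per length. A change is the log2 change of FPKM + 1 with its standard error, and a member is said to rise or fall where the Benjamini-Hochberg adjusted p from limma, over all genes tested, was under 0.05. Both doses were compared with the same 2 PBS samples.

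The implied library totals lay between 24.2 and 28.4 in units of 1000000 fragments, and the least covered member, Arsb, still had 775 fragments in its lowest sample. All 15 macrophage markers were measured. Of these, 12 fell at 10 µM, beside 22% of all genes tested, and Spi1, Fcgr1 and Fcer1g did not pass. The summed level of the 15, most of it Lyz2, was 23531 to 24241 FPKM with PBS, 17293 to 17753 FPKM at 5 µM and 9256 to 10204 FPKM at 10 µM. Of the 12 stromal markers, 10 were expressed enough to be tested, and 8 of these fell at 10 µM. The 12 summed to 2011 to 2058, 548 to 665 and 387 to 407 FPKM in the same order of doses. Of the 10 neutrophil markers, only 5 were expressed enough to be tested, and all 5 fell at 10 µM. The 10 summed to 115 FPKM in each PBS sample. At 5 µM that sum was 37.1 and 42.8 FPKM, and at 10 µM it was 5.22 and 7.32 FPKM. The dendritic markers summed to at most 0.414 FPKM in a sample, and the lymphoid markers to at most 0.236 FPKM. Of the 4 mast cell and basophil markers, 1 was tested and fell at 10 µM, and the 4 summed to at most 4.39 FPKM. Of the 5 osteoclast markers, 2 were tested, and 1 rose and 1 fell at 10 µM. The 5 summed to 81.9 to 87.9 FPKM with PBS, 104 to 105 FPKM at 5 µM and 73.1 to 80.1 FPKM at 10 µM. In bulk RNA, fewer cells of a type and less RNA per cell cannot be told apart, and the part of these shifts in the results below was not tested.

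All 34 members passed the expression filter. At 5 µM, 20 members rose and 5 fell against PBS. Among all 12722 genes with a test, 15.1% were higher and 15.4% lower in that comparison, 30.5% in either direction. At 10 µM, 17 members rose and 15 fell against PBS, beside 28.5% higher and 22% lower among all genes, 50.5% in either direction. Set against 5 µM, 5 members were higher and 13 lower at 10 µM, beside 11.4% and 8.5% of all genes, 19.9% in either direction. With median-of-ratios scaling that last comparison gave 1042 genes higher and 1322 lower, where the deposited scaling gave 1455 and 1081, and 2 members higher and 15 lower. The members' median change against PBS was 0.26 at 5 µM and 0.13 at 10 µM, beside 0.01 and 0.05 for all genes. For 10 µM against 5 µM it was -0.13, beside 0.04. The 2 samples of one group lay wholly above or below those of the other for 31 members at 5 µM against PBS, 33 at 10 µM against PBS and 29 at 10 µM against 5 µM, beside 70%, 76.7% and 63.7% of all genes. At the higher dose the members thus held both rises and falls, as did all genes tested, with 3631 higher and 2796 lower. With a filter of 5 FPKM, 2624 of 7702 genes were higher and 1971 lower at 10 µM against PBS, and the member counts stayed at 17 and 15. Neighbouring steps of the same breakdown pathways were found in both directions. Naglu, with a ratio of mean FPKM of 2.44 at 10 µM against PBS, stood at one end, and Man2b1, with a ratio of 0.499, at the other.

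The counts at 10 µM against PBS were steady when 1 of the 6 samples was left out, with 16 to 17 members higher and 12 to 14 lower. Those at 5 µM were less so. The 20 rises became 11 without PBS replicate 1, 14 without PBS replicate 2 and 12 without either 5 µM sample, and 11 rises were kept whichever sample was left out: Naglu, Gla, Gaa, Idua, Galns, Hgsnat, Tpp1, Psap, Npc1, Cd63 and Cd68. The 5 falls at 5 µM became 0 without PBS replicate 1, PBS replicate 2 or 5 µM replicate 1, and 1 without 5 µM replicate 2. Between the doses, the 5 higher members became 1 without 5 µM replicate 1, 5 µM replicate 2 or 10 µM replicate 2, and 3 without 10 µM replicate 1. The 13 lower members became 7 without 5 µM replicate 2. Replicate 2 exceeded replicate 1 for 21 members with PBS, 25 at 5 µM and 30 at 10 µM, and the SD of the pair had a median of 2.74% of the mean with PBS, 1.83% at 5 µM and 4.25% at 10 µM.

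**Figure D1:**
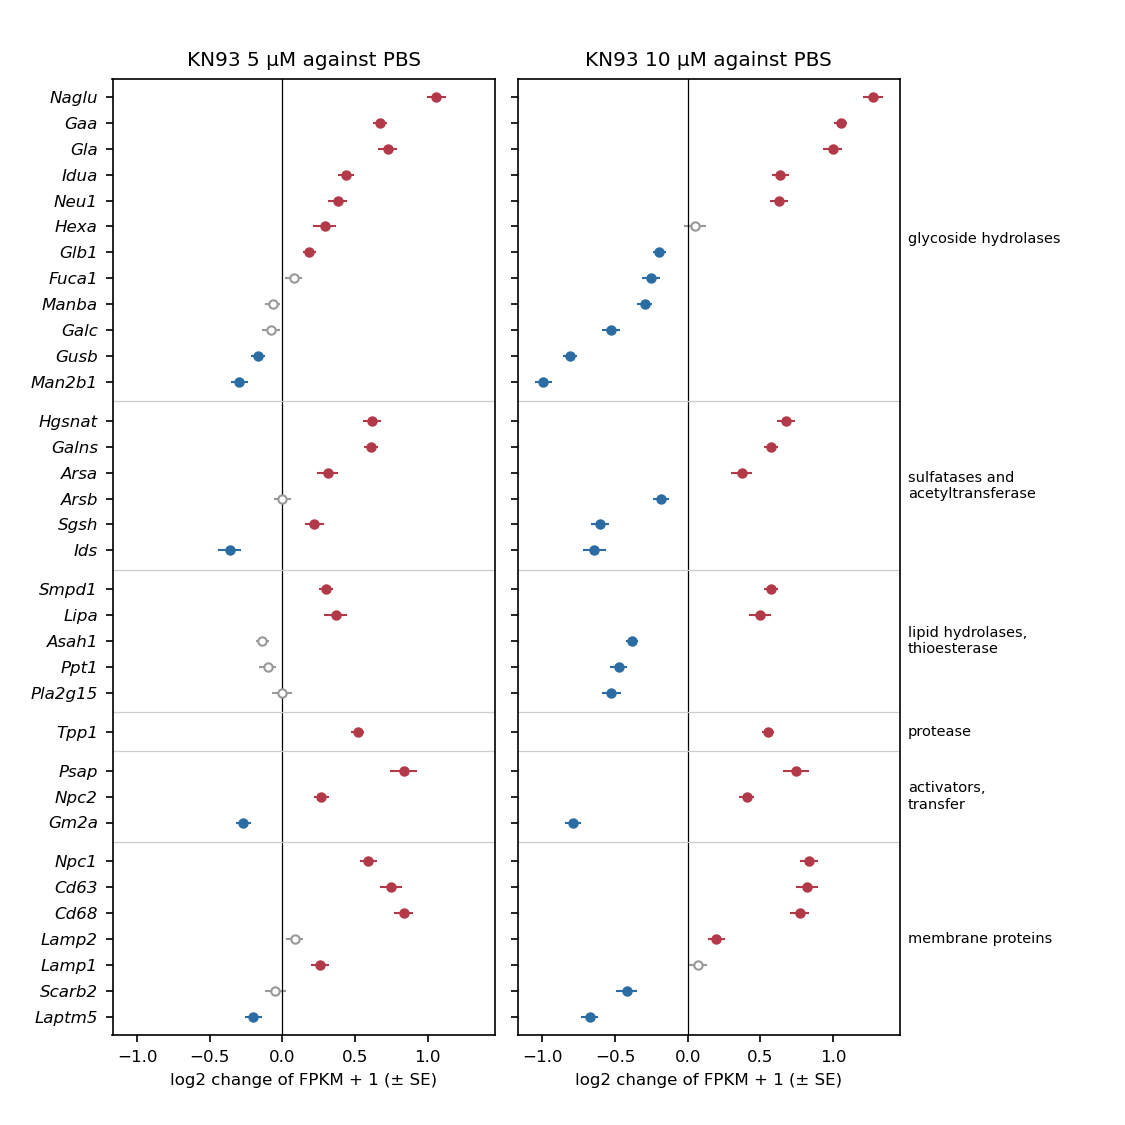
Log2 change of FPKM + 1 with its standard error for each of the 34 genes, at 5 µM (left) and 10 µM KN93 (right) against the same 2 PBS samples, with red for rises, blue for falls and open grey for genes that did not pass the limma test. At 10 µM the genes run from 1.27 (Naglu) to -0.99 (Man2b1).

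**Figure D2:**
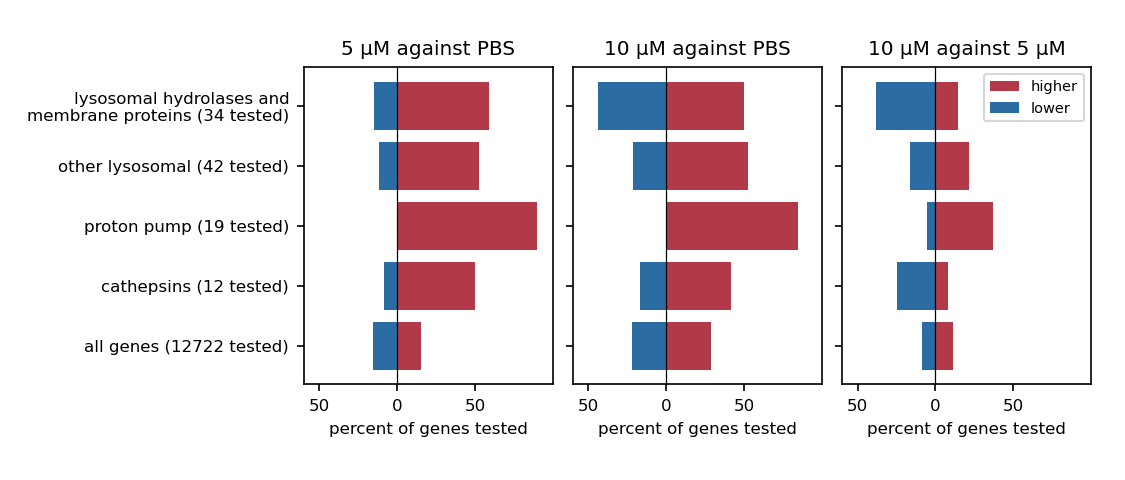
Percent of the tested genes of each list that were higher (red, to the right) or lower (blue, to the left) by limma in the 3 comparisons, with all 12722 genes tested at the bottom. Of the 34 lysosomal hydrolases and membrane proteins, 17 were higher and 15 lower at 10 µM against PBS.

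The windows from 250 bases before to 50 bases after the RefSeq start were searched for CACGTG, which reads the same on both strands, and for the longer TCACGTG on either strand, which contains it. The RefSeq table for GRCm38.p6 holds 30 of the 34 members, without Asah1, Galns, Hgsnat and Npc1. CACGTG was present in the windows of 7 of these 30 genes (23.3%), beside 7.15% of the 32851 windows in the table. TCACGTG was present in the same 7, beside 3.77% of all windows. The member shares count genes, while the other shares count windows and are not limited to the genes tested here. They are therefore not like for like. The search and its letters were chosen with the members' values known, and a match of letters does not show that a factor binds. The stretches of the 6 genes among them with the largest change at 10 µM are printed 5′ to 3′ on the strand of the gene, with CACGTG and a flanking T or A in capitals, since they show the same letters in genes that rose and in genes that fell.
Naglu, chr11:101070008-101070037, plus strand: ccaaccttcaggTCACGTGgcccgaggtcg
Gaa, chr11:119267795-119267855, plus strand: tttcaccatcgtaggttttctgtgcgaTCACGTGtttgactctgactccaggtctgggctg
Gla, chrX:134601166-134601255, minus strand: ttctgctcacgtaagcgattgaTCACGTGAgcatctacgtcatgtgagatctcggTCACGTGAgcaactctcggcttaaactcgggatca
Arsa, chr15:89477426-89477468, minus strand: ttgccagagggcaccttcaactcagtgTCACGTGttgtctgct
Glb1, chr9:114401002-114401062, plus strand: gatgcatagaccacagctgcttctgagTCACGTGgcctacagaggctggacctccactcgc
Sgsh, chr11:119355522-119355551, minus strand: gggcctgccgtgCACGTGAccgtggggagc

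Naglu, Gaa, Arsa, Glb1 and Sgsh hold 1 such stretch each, Gla 2 and Lamp1 4. In Naglu and Sgsh the letters lie inside the annotated first exon or around the gene start. In the other holders they lie before the annotated gene start. All 7 genes rose at 5 µM, with changes of 0.18 to 1.06, although the calls of Arsa, Lamp1, Glb1 and Sgsh were lost when samples were left out, as given with each gene below. At 10 µM 4 of the 7 rose and 2 fell, with changes of -0.60 to 1.27. Of the 23 genes whose windows lack CACGTG, 10 rose and 5 fell at 5 µM, and 10 rose and 12 fell at 10 µM. The median change of those 23 was 0.08 at 5 µM and -0.18 at 10 µM, against 0.31 and 0.37 for the 7 with the letters. The 4 members without a window, Asah1, Galns, Hgsnat and Npc1, are outside both groups. Of these 4, 3 rose at each dose and Asah1 fell at 10 µM. Their median change was 0.60 at 5 µM and 0.62 at 10 µM. Psap, Cd68 and Cd63 are among the genes that rose at both doses without CACGTG in this window. Among all genes tested, 15.1% rose and 15.4% fell at 5 µM, and 28.5% rose and 22% fell at 10 µM. Genes outside the set were not divided by these letters, and no sequence feature was tested against the change.

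The glycoside hydrolases, which cut sugars from glycans, glycolipids and glycogen, were the largest role group. Of the 12, 7 rose and 2 fell at 5 µM, and 5 rose and 6 fell at 10 µM. Naglu encodes the N-acetylglucosaminidase of heparan sulfate breakdown and lies on chromosome 11 at 101070012 to 101077672 of GRCm38. It measured 59.0 and 62.9 FPKM with PBS, 124 and 132 FPKM at 5 µM, and 142 and 156 FPKM at 10 µM. Every sample given KN93 lay above both PBS samples. The change was 1.06 ± 0.07 at 5 µM and 1.27 ± 0.07 at 10 µM (limma adjusted p = 0.000584 and 8.63e-05). Gaa, on chromosome 11 at 119267887 to 119285454, encodes the acid α-glucosidase that degrades glycogen. Its levels were 56.0 and 58.2 FPKM with PBS, 91.0 and 92.0 FPKM at 5 µM, and 117 and 122 FPKM at 10 µM. The 3 groups did not overlap, and the change was 0.67 ± 0.05 at 5 µM and 1.05 ± 0.05 at 10 µM (limma adjusted p = 0.000712 and 5.71e-05). Gaa was also higher at 10 µM than at 5 µM, by 0.38 ± 0.05 (limma adjusted p = 0.00609), the one rise between the doses among the members that was kept whichever sample was left out.

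Gla, the α-galactosidase A gene on the X chromosome, averaged 54.0 ± 3.65 FPKM with PBS, 89.8 ± 2.13 FPKM at 5 µM and 109 ± 5.49 FPKM at 10 µM (SD, n = 2 each). Idua, which encodes the iduronidase of heparan and dermatan sulfate breakdown, averaged 18.7 ± 0.0462, 25.7 ± 0.626 and 29.8 ± 1.91 FPKM from PBS to 10 µM. Neu1, a sialidase gene, averaged 31.8 ± 2.0, 41.6 ± 1.80 and 49.6 ± 1.89 FPKM in that order of doses. All 3 rose at both doses, but the rise of Neu1 at 5 µM was lost without PBS replicate 1 (limma adjusted p = 0.0514) or 5 µM replicate 1 (0.0554). Gla and Neu1 were higher at 10 µM than at 5 µM by 0.27 ± 0.07 and 0.25 ± 0.06 (limma adjusted p = 0.0388 and 0.0466). These calls did not last when any 1 of the 5 µM and 10 µM samples was left out (limma adjusted p = 0.0653 to 0.164 for Gla and 0.0869 to 0.197 for Neu1), and for Neu1 also without either PBS sample (0.0559).

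Man2b1 and Gusb fell most in this role group. Man2b1, the lysosomal α-mannosidase gene on chromosome 8 at 85083270 to 85098282, measured 125 and 130.1 FPKM with PBS, 103 and 104 FPKM at 5 µM, and 60.9 and 66.5 FPKM at 10 µM. The levels thus stepped down with dose without overlap between groups, and the change at 10 µM was -0.99 ± 0.06 (limma adjusted p = 0.000113). Gusb, on chromosome 5, encodes the β-glucuronidase that removes glucuronic acid from glycosaminoglycans. Its levels were 133 and 135 FPKM with PBS, 119.1 and 119.4 FPKM at 5 µM, and 74.0 and 78.2 FPKM at 10 µM, a change of -0.81 ± 0.05 at 10 µM (limma adjusted p = 0.00012). Their smaller falls at 5 µM, -0.30 ± 0.06 for Man2b1 and -0.17 ± 0.05 for Gusb (limma adjusted p = 0.0144 and 0.0473), were lost without any 1 of the PBS and 5 µM samples (0.054 to 0.0766 and 0.145 to 0.181). Between the doses both were lower at 10 µM, by -0.70 ± 0.06 and -0.64 ± 0.05 (limma adjusted p = 0.00207 and 0.00155).

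Galc, Manba and Fuca1 did not pass the test at 5 µM and were lower at 10 µM than at either lower dose. Galc encodes the galactosylceramidase that is lost in Krabbe disease, and measured 9.03 and 9.70 FPKM with PBS, 8.71 and 8.93 FPKM at 5 µM, and 5.92 and 6.45 FPKM at 10 µM. Both 10 µM samples lay well below the other 4, with a change of -0.53 ± 0.06 against PBS (limma adjusted p = 0.00129). Manba, the β-mannosidase gene, had 9.04 and 9.46 FPKM with PBS, 8.65 and 8.90 FPKM at 5 µM, and 7.28 and 7.40 FPKM at 10 µM, a change of -0.30 ± 0.05 (limma adjusted p = 0.00466). Fuca1, the α-fucosidase gene, had 53.6 and 53.3 FPKM with PBS, 56.3 and 56.7 FPKM at 5 µM, and 42.5 and 47.1 FPKM at 10 µM, a change of -0.25 ± 0.06 (limma adjusted p = 0.0155). Without PBS replicate 1 or 2 the fall of Fuca1 against PBS was lost (limma adjusted p = 0.0697 and 0.0637). Against 5 µM, Galc lost its call without 5 µM replicate 2 (limma adjusted p = 0.0546), Fuca1 without either 5 µM sample (0.0759 and 0.0872) and Manba without any 1 of the 6 samples (0.0556 to 0.139).

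Glb1 and Hexa encode the β-galactosidase and the β-hexosaminidase α subunit, which act on gangliosides and on glycosaminoglycans. Glb1 measured 45.5 and 44.8 FPKM with PBS, 52.1 and 50.8 FPKM at 5 µM, and 38.4 and 40.2 FPKM at 10 µM. It was highest at 5 µM and lowest at 10 µM, with no overlap between the groups. Its rise at 5 µM was 0.18 ± 0.05 and its fall at 10 µM -0.20 ± 0.05 (limma adjusted p = 0.0311 and 0.0159), and it was lower at 10 µM than at 5 µM by -0.38 ± 0.05 (0.00555). The last of these was kept whichever sample was left out. The rise was lost without any 1 of the PBS and 5 µM samples (limma adjusted p = 0.0954 to 0.145), and the fall without either PBS sample or 10 µM replicate 1 (0.0576 to 0.0826). Hexa averaged 364 ± 14.6 FPKM with PBS, 444 ± 0.162 FPKM at 5 µM and 377 ± 36.1 FPKM at 10 µM (SD, n = 2 each), and passed only at 5 µM (limma adjusted p = 0.0389), a call lost without any 1 of the PBS and 5 µM samples (0.0926 to 0.175).

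Among the sulfatases and the acetyltransferase Hgsnat, 4 of 6 rose and 1 fell at 5 µM, and 3 rose and 3 fell at 10 µM. Hgsnat encodes the membrane enzyme that acetylates the terminal glucosamine of heparan sulfate, the step just before Naglu. It measured 57.1 and 53.7 FPKM with PBS, 81.7 and 89.2 FPKM at 5 µM, and 87.3 and 90.7 FPKM at 10 µM. Samples of either dose lay above both PBS samples and overlapped each other, with changes of 0.62 ± 0.06 and 0.68 ± 0.06 (limma adjusted p = 0.00198 and 0.000544). Galns, the gene of the sulfatase that acts on keratan sulfate, averaged 40.2 ± 0.842, 61.9 ± 0.798 and 60.3 ± 2.42 FPKM from PBS to 10 µM, and rose at both doses (limma adjusted p = 0.000917 and 0.000393). Arsa, which encodes the arylsulfatase of sulfatide breakdown, averaged 11.5 ± 0.323, 14.5 ± 0.423 and 15.2 ± 1.40 FPKM, with a rise of 0.37 ± 0.07 at 10 µM (limma adjusted p = 0.00757). Its rise at 5 µM (limma adjusted p = 0.0239) was lost without any 1 of the PBS and 5 µM samples (0.075 to 0.114).

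Ids, the X-linked iduronate sulfatase gene, measured 17.3 and 16.7 FPKM with PBS, 12.3 and 13.7 FPKM at 5 µM, and 11.2 and 9.86 FPKM at 10 µM, a change of -0.64 ± 0.08 at 10 µM (limma adjusted p = 0.00161). Its fall at 5 µM, -0.36 ± 0.08 (limma adjusted p = 0.0216), was lost without either PBS sample or 5 µM replicate 1 (0.0718 to 0.103). The difference between the doses, -0.28 ± 0.08, did not pass (limma adjusted p = 0.0632). Sgsh, on chromosome 11 at 119343425 to 119355536, encodes the sulfamidase of heparan sulfate breakdown and changed most between the doses. Its levels were 30.4 and 33.0 FPKM with PBS, 36.1 and 38.1 FPKM at 5 µM, and 19.9 and 21.2 FPKM at 10 µM. The 5 µM samples were the highest and the 10 µM samples the lowest, without overlap. Sgsh was lower at 10 µM than at 5 µM by -0.82 ± 0.06 and lower than PBS by -0.60 ± 0.06 (limma adjusted p = 0.00163 and 0.000851), calls that were kept whichever sample was left out. The rise at 5 µM of 0.22 ± 0.06 (limma adjusted p = 0.0477) was lost without any 1 of the 6 samples (0.0551 to 0.209). Exons of Card14 on the other strand cover 21.6% of the Sgsh exon bases. Card14 itself stayed between 1.03 and 1.58 FPKM.

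Arsb, the arylsulfatase B gene of dermatan sulfate breakdown, was the lowest member. It measured 6.14 and 5.86 FPKM with PBS, 6.13 and 5.86 FPKM at 5 µM, and 5.31 and 5.04 FPKM at 10 µM. Its fall at 10 µM, -0.18 ± 0.06 (limma adjusted p = 0.0408), was lost without any 1 of the 6 samples (0.0573 to 0.183). Exons of noncoding genes on the other strand cover 39.9% of the Arsb exon bases, and their levels reached 1.40 FPKM.

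The stepwise breakdown of heparan sulfate held both directions within 1 pathway. Idua, Hgsnat and Naglu rose at 10 µM, while Ids, Sgsh and Gusb fell. At 5 µM 4 of these 6 rose and 2 fell. Naglu was the most abundant of the 6 at 10 µM, with 149 ± 9.81 FPKM, against 60.9 ± 2.79 FPKM with PBS. Gusb was the most abundant with PBS, and averaged 76.1 ± 3.0 FPKM at 10 µM, against 134 ± 1.61 FPKM with PBS (SD, n = 2 each).

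**Figure D3:**
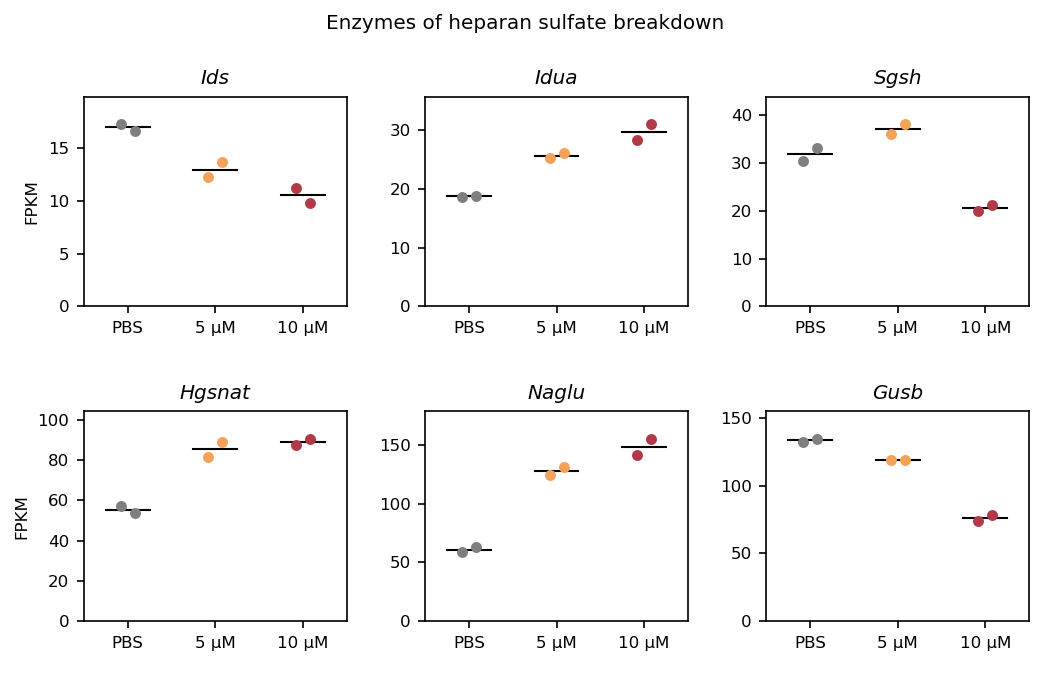
FPKM in each sample (points) and the group mean (line) of the 6 members that take part in heparan sulfate breakdown, by dose. Idua, Hgsnat and Naglu lie higher at 10 µM than with PBS, and Ids, Sgsh and Gusb lower.

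The lipid hydrolases and the thioesterase also held both directions. Lipa and Smpd1 rose at both doses, and Pla2g15, Ppt1 and Asah1 fell at 10 µM. Smpd1 encodes acid sphingomyelinase and measured 10.7 and 11.0 FPKM with PBS, 13.5 and 13.7 FPKM at 5 µM, and 16.2 and 17.1 FPKM at 10 µM. It climbed in each dose step, with a change of 0.57 ± 0.05 at 10 µM against PBS (limma adjusted p = 0.000405). The 5 µM call of Smpd1 was lost without PBS replicate 1 or 5 µM replicate 2 (limma adjusted p = 0.0539 and 0.0534). Its rise between the doses (limma adjusted p = 0.0173) was lost without either 5 µM sample or 10 µM replicate 2 (0.062 to 0.0894). Lipa, the gene of the acid lipase that frees cholesterol and fatty acids from esters, averaged 292 ± 29.1, 375 ± 1.35 and 411 ± 9.48 FPKM from PBS to 10 µM, and rose by 0.50 ± 0.08 at 10 µM (limma adjusted p = 0.00343). At 5 µM its rise (limma adjusted p = 0.0184) was lost without PBS replicate 1 or either 5 µM sample (0.0707 to 0.0807).

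Pla2g15 encodes the lysosomal phospholipase A2 and measured 80.0 and 84.8 FPKM with PBS, 80.0 and 84.4 FPKM at 5 µM, and 54.1 and 59.9 FPKM at 10 µM. The PBS and 5 µM samples covered the same range and both 10 µM samples lay below it, with a change of -0.53 ± 0.07 against PBS (limma adjusted p = 0.00176). Ppt1, which encodes the thioesterase that removes palmitate from proteins, had 35.9 and 35.8 FPKM with PBS, 31.7 and 35.1 FPKM at 5 µM, and 25.3 and 25.8 FPKM at 10 µM. Its change at 10 µM was -0.48 ± 0.06 (limma adjusted p = 0.00151). Exons of Cap1 on the other strand cover 3.51% of the Ppt1 exon bases. Cap1 had 193.2 and 192.5 FPKM with PBS, 193.6 and 198 FPKM at 5 µM, and 164 and 169 FPKM at 10 µM. The part of Cap1 fragments in the Ppt1 values was not tested. Asah1, the acid ceramidase gene, had 133 and 132 FPKM with PBS, 119 and 122 FPKM at 5 µM, and 100.1 and 103 FPKM at 10 µM, a change of -0.38 ± 0.04 (limma adjusted p = 0.00113). All 3 were also lower at 10 µM than at 5 µM (limma adjusted p = 0.00671, 0.0114 and 0.0167). That call was lost for Ppt1 without 5 µM replicate 2 or 10 µM replicate 1 (limma adjusted p = 0.0538 and 0.0526) and for Asah1 without either 5 µM sample or 10 µM replicate 1 (0.0588 to 0.098). Smpd1 and Asah1, which act in turn on sphingomyelin and on the ceramide it releases, thus had opposite calls at 10 µM.

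Tpp1 encodes the tripeptidyl peptidase of the lysosome, the only protease in the set. It measured 68.60 FPKM in both PBS samples, 97.4 and 99.9 FPKM at 5 µM, and 99.9 and 102 FPKM at 10 µM. Both doses lay above PBS and near each other, with changes of 0.52 ± 0.04 and 0.55 ± 0.04 (limma adjusted p = 0.00105 and 0.000289).

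Psap was by far the most abundant member in every group. It encodes prosaposin, which is cut into the saposins that help hydrolases reach sphingolipids, and lies on chromosome 10 at 60277627 to 60302597. Its levels were 4021 and 4442 FPKM with PBS, 7381 and 7681 FPKM at 5 µM, and 6923 and 7239 FPKM at 10 µM. All 4 samples with KN93 lay above the PBS samples, and the 10 µM samples lay below the 5 µM samples. Psap rose by 0.83 ± 0.09 at 5 µM and by 0.74 ± 0.09 at 10 µM (limma adjusted p = 0.00251 and 0.00147), and the difference between the doses, -0.09 ± 0.09, did not pass the test (0.528). With quantile normalization, which sets values by rank, that difference was 0.68 (limma adjusted p = 0.00396). Lyz2 averaged 11467 FPKM at 5 µM and 6208 FPKM at 10 µM, so Psap lay below it at 5 µM and above it at 10 µM. The part of this change of rank in the value of 0.68 was not tested. With no expression filter neither rise passed (limma adjusted p = 0.233 and 0.223). Psap alone made up 1.17% and 1.29% of all FPKM in the PBS samples, 2.09% and 2.20% in the 5 µM samples, and 2.05% and 2.07% in the 10 µM samples. The 34 members together made up 2.53% and 2.68% of all FPKM in PBS samples, 3.79% and 3.93% in 5 µM samples, and 3.65% and 3.73% in 10 µM samples. Without Psap these shares were 1.36% and 1.39% in PBS samples, 1.70% and 1.73% in 5 µM samples, and 1.60% and 1.66% in 10 µM samples.

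Gm2a, which encodes the activator that lifts ganglioside GM2 out of the membrane for β-hexosaminidase, fell while Psap rose. It measured 71.3 and 70.4 FPKM with PBS, 58.0 and 59.3 FPKM at 5 µM, and 39.0 and 42.2 FPKM at 10 µM. The groups stepped down with dose and did not overlap. The change at 10 µM was -0.79 ± 0.05 against PBS and -0.52 ± 0.05 against 5 µM (limma adjusted p = 0.00018 and 0.00346). The fall at 5 µM, -0.27 ± 0.05 (limma adjusted p = 0.0152), was lost without any 1 of the PBS and 5 µM samples (0.0639 to 0.0811). Npc2 encodes the soluble protein that carries cholesterol to NPC1, and averaged 279.8 ± 3.75, 337 ± 2.56 and 371 ± 15.3 FPKM from PBS to 10 µM. It rose by 0.41 ± 0.05 at 10 µM (limma adjusted p = 0.00178). Its rise at 5 µM, 0.27 ± 0.05 (limma adjusted p = 0.015), was lost without any 1 of the PBS and 5 µM samples (0.0661 to 0.0831).

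Of the 7 membrane proteins, 4 rose and 1 fell at 5 µM, and 4 rose and 2 fell at 10 µM. Npc1 encodes the membrane protein that exports cholesterol from the lysosome. It measured 31.5 and 35.1 FPKM with PBS, 50.4 and 50.7 FPKM at 5 µM, and 59.3 and 60.6 FPKM at 10 µM. The change was 0.59 ± 0.06 at 5 µM and 0.83 ± 0.06 at 10 µM (limma adjusted p = 0.002 and 0.000233), and Lipa and Npc2, which act before it on the same cholesterol, rose at both doses too. Between the doses its rise (limma adjusted p = 0.0433) was lost without any 1 of the 5 µM and 10 µM samples (0.104 to 0.151). Cd63, a tetraspanin gene of late endosomes and lysosomes, had 91.7 and 99.3 FPKM with PBS, 166 and 155 FPKM at 5 µM, and 160.2 and 179 FPKM at 10 µM. The 2 doses overlapped each other, above PBS, with a change of 0.82 ± 0.08 at 10 µM (limma adjusted p = 0.000552).

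Cd68, which encodes a heavily glycosylated lysosomal protein often used to stain macrophages, measured 842 and 861 FPKM with PBS, 1532 and 1508 FPKM at 5 µM, and 1396 and 1511 FPKM at 10 µM. It rose by 0.84 ± 0.07 and 0.77 ± 0.07 (limma adjusted p = 0.000887 and 0.000403). In the same samples Adgre1, the gene of the macrophage antigen F4/80, named here after its values were seen, averaged 341 FPKM at 10 µM and 981 FPKM with PBS. Cd68 therefore went the other way from 12 of the 15 macrophage markers at 10 µM. Laptm5, a lysosomal membrane gene of blood cells, had 449 and 447 FPKM with PBS, 382 and 397 FPKM at 5 µM, and 269.9 and 291 FPKM at 10 µM. It fell by -0.68 ± 0.06 at 10 µM (limma adjusted p = 0.000412), and its call at 5 µM (0.048) was lost without any 1 of the PBS and 5 µM samples (0.109 to 0.194).

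Lamp1 and Lamp2 encode abundant glycoproteins of the lysosomal membrane. Lamp1 measured 1078 and 1066 FPKM with PBS, 1273 and 1289 FPKM at 5 µM, and 1092 and 1161 FPKM at 10 µM. It was highest at 5 µM, with a rise of 0.26 ± 0.06 (limma adjusted p = 0.0271) that was lost without any 1 of the PBS and 5 µM samples (0.0942 to 0.128). At 10 µM the change of Lamp1 was 0.07 ± 0.06 (limma adjusted p = 0.376), and its window holds 4 copies of CACGTG. Lamp2 averaged 68.5 ± 1.71, 72.6 ± 2.84 and 78.7 ± 3.88 FPKM from PBS to 10 µM. Its rise at 10 µM, 0.20 ± 0.06 (limma adjusted p = 0.0312), was lost without either PBS sample or 10 µM replicate 1 (0.0782 to 0.139). Scarb2, which encodes LIMP-2, the receptor that brings β-glucocerebrosidase to the lysosome, had 51.5 and 59.6 FPKM with PBS, 53.3 and 53.7 FPKM at 5 µM, and 41.3 and 41.2 FPKM at 10 µM. It fell by -0.42 ± 0.07 at 10 µM (limma adjusted p = 0.00549). Against 5 µM its fall (limma adjusted p = 0.0228) was lost without any 1 of the 5 µM and 10 µM samples (0.0816 to 0.105).

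**Figure D4:**
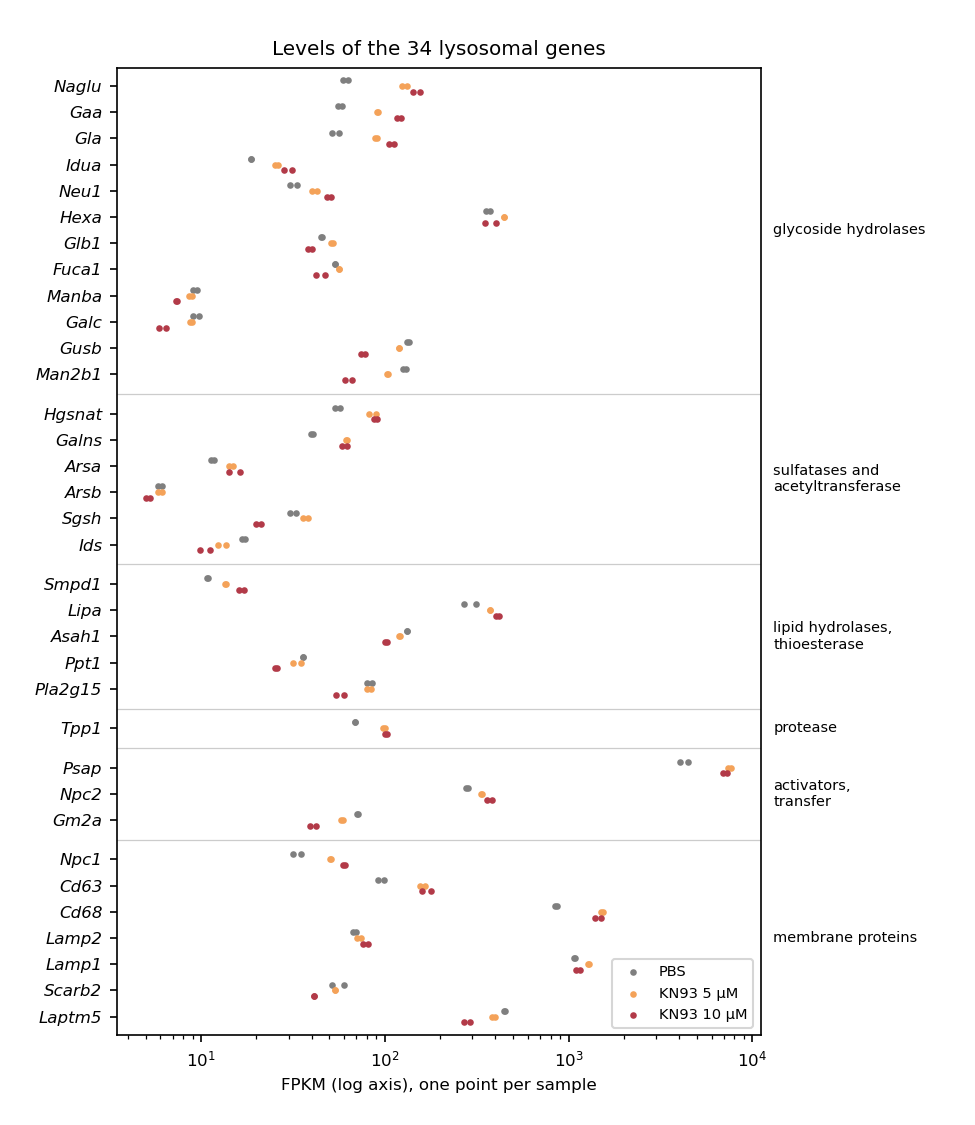
FPKM of each gene in each of the 6 samples on a log axis, by role, with grey for PBS, orange for 5 µM and dark red for 10 µM KN93. Levels run from 5.04 FPKM (Arsb) to 7681 FPKM (Psap).

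Per length, the members spanned from 6.00 FPKM (Arsb) to 4231 FPKM (Psap) in PBS cells, with a median of 56.3 FPKM. Psap, Lamp1 and Cd68 were the 3 highest with PBS. Cd68 passed Lamp1 at 5 µM and 10 µM. At 10 µM Man2b1 stood at rank 17 of the 34, against rank 10 with PBS, and Naglu at rank 9, against rank 16.

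A limma test set the change of 10 µM against 5 µM minus the change of 5 µM against PBS, a signed difference. It passed the test with a value below 0 for 10 members, beside 2.48% of all genes tested. With a value above 0 it passed for 2.88% of all genes, 5.36% in either direction. The other 24 members did not pass. The members' median difference was -0.36, beside 0.03 for all genes. Of the 10, Gusb fell more in the second step (-0.64) than in the first (-0.17), and the other 9 had risen at 5 µM, with second-step changes between -0.82 (Sgsh) and 0.21 (Naglu). Sgsh had the largest difference, -1.04 ± 0.11, followed by Psap at -0.92 ± 0.16 and Cd68 at -0.90 ± 0.11 (limma adjusted p = 0.0192, 0.0394 and 0.0261). The count of 10 became 0 without PBS replicate 1, 5 µM replicate 1, 5 µM replicate 2 or 10 µM replicate 1, 1 without PBS replicate 2 and 5 without 10 µM replicate 2.

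In a list of 42 further tested lysosomal genes, 22 rose and 9 fell at 10 µM, with a median change of 0.23, and 22 rose and 5 fell at 5 µM. Among all genes tested, 28.5% rose and 22% fell at 10 µM, with a median of 0.05, and 15.1% rose and 15.4% fell at 5 µM. Clcn7, a chloride transporter gene, had the smallest p of that list at 10 µM, with 151 ± 2.78 FPKM at 10 µM and 58.9 ± 0.572 FPKM with PBS. Of 19 proton pump genes 16 rose at 10 µM, with a median change of 0.52. Of 12 cathepsin and legumain genes 5 rose and 2 fell, with a median of 0.14. Of 22 genes of mannose 6-phosphate sorting, sulfatase maturation and endosomal transport, 13 rose and 3 fell. Of 7 genes of the MiT/TFE factors and their regulators 4 rose and 2 fell at 10 µM. The values of the 4 factors themselves follow, chosen because factors of this family bind the E-box. Tfec, with the smallest p of that list, fell to 2.65 ± 0.0176 FPKM at 10 µM, against 6.18 ± 0.209 FPKM with PBS, a change of -0.98 ± 0.06 (limma adjusted p = 0.00011). Tfeb rose to 8.82 ± 1.08 FPKM at 10 µM, against 5.35 ± 0.107 FPKM with PBS (limma adjusted p = 0.00193). Tfe3 fell slightly, with 13.5 ± 0.129 against 16.1 ± 0.208 FPKM (limma adjusted p = 0.00626), and Mitf did not pass (0.0554).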

How the data were processed

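RNA was isolated with TRIzol and sequenced by a standard Illumina workflow, per the labels' protocols. The values the authors deposited are FPKM, 1 column a sample, with no further scaling stated. The column names carry a prefix, DXM, that the labels do not explain, and columns were matched to samples by the sample title after it. Reads had been aligned with HISAT2 to GRCm38, per the submitters' processing notes. Not given in the sources used here are the counting tool, annotation, strand setting and filters, so fragments of overlapping genes on opposite strands cannot be told apart. Besides Sgsh, Arsb and Ppt1, this concerns Arsa, Galc, Hexa, Idua, Lamp1 and Npc1. Glb1 shares 5.49% of its exon bases with Tmppe on the same strand, where a strand setting would not separate them. Tmppe had 9.25 to 12.4 FPKM, and its part in the Glb1 values was not tested. Gene IDs were matched to GENCODE M21 for 99.93% of 54446 entries, which gave coordinates and exon lengths. FPKM times exon length fell on whole fragments within 0.1 for 98.8% to 99% of values of up to 20 fragments, which gave the depth.

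The test covered the 12722 genes that reached 1 FPKM in 2 or more of the 6 samples. limma 3.58.1 (R 4.3.3) was run on log2(FPKM + 1) (group as a factor, all samples in one fit, eBayes with an intensity trend, two-sided), with 3 residual and 2.72 prior degrees of freedom. The members and lists were chosen with earlier results of these data known, and a rule by role, size of change and call picked the members given sample by sample. Promoter stretches were limited to the 6 holders of the motif with the largest change at 10 µM. Samples of a group differed by more than counting noise (median chi-square per gene of 1.08 to 1.61, where noise gives 0.455). They are therefore not copies of 1 set of values. This does not show that they are separate libraries or cultures.

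The alternatives were another pseudocount (0.1 FPKM), no filter, a filter of 5 FPKM, median-of-ratios scaling, quantile normalization, no trend, a fit of the compared groups alone, a block by replicate number, voom on recovered fragments, an adjusted p under 0.01, and each sample left out. Some genes are not reported here.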

Additional observations from a re-analysis of the deposited data

How the results depend on the processing

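Among the alternatives, the counts at 10 µM against PBS stayed at 15 to 17 members higher and 12 to 15 lower. The counts at 5 µM moved more. With an adjusted p under 0.01 they were 13 higher and 0 lower, and with no filter 13 and 2. The 5 lower members became 3 with median-of-ratios scaling, quantile normalization, no trend or the replicate block. Leaving out 1 sample gave 11 to 19 higher and 0 to 5 lower. Between the doses, the 5 higher members became 1 with an adjusted p under 0.01 and 2 with no filter, median-of-ratios scaling, no trend or the replicate block, and 1 to 4 with 1 sample left out. The 13 lower became 8 with an adjusted p under 0.01 and 7 to 12 with 1 sample left out. The 10 members that passed with a step difference below 0 became 0 with an adjusted p under 0.01 or no filter, 6 with no trend and 4 with the replicate block. The stricter p lowers these counts by its construction. For the other settings the cause was not tested.

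Samples with the same replicate number showed no shared deviation over the genes tested (correlations of -0.055, 0.0143 and 0.0373). With 2 samples in each group, this cannot exclude that equal numbers share an animal or culture. The fit with the number as a block gave 18 members higher and 3 lower at 5 µM, and 16 and 15 at 10 µM. Median-of-ratios scaling moved the median change of all genes at 10 µM against PBS by -0.0424, and quantile normalization by less.

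Of 1632 values of single members under the alternatives, 16 changed sign and 1 was exactly 0. Of those that changed sign, 15 did not pass the test either way. The exception is Psap at 10 µM against 5 µM, at 0.68 with quantile normalization (adjusted p = 0.00396), given above beside the Lyz2 values. Quantile normalization also gave 0.018 for Arsb and 0.0157 for Pla2g15 at 5 µM, -0.0310 for Lamp1 at 10 µM and 0 for Cd68 between the doses. Median-of-ratios scaling gave -0.00146 for Hexa at 10 µM and -0.0118 for Tpp1 between the doses. With 1 sample left out, the change at 5 µM ran from -0.0301 to 0.0275 for Arsb (0.0263 without 5 µM replicate 2), from -0.0451 to 0.0374 for Pla2g15 (0.0347 without 5 µM replicate 1) and from -0.154 to 0.0540 for Scarb2. Likewise Hexa ran from -0.0478 to 0.147 at 10 µM. Between the doses Arsa ran from -0.0280 to 0.148, Cd63 from -0.00372 to 0.152, Galns from -0.0772 to 0.00326 and Hgsnat from -0.00280 to 0.122.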
